A study of Mus musculus with 28 samples.

Results

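The protocadherin beta genes and the variable genes of the protocadherin gamma cluster were followed across summit lists for Smchd1, Ctcf, H3K4me3, H3K27me3 and methylated DNA in mouse neural stem cells. All protein-coding genes of chromosome 18 with symbols that begin Pcdhb, Pcdhga or Pcdhgb followed by a number were taken, which gave 40 of 21883 protein-coding genes on the assembled chromosomes: 22 beta genes, 12 gamma A genes and 6 gamma B genes. Pcdhgb8 is annotated as a transcribed pseudogene, was not counted, and is described separately. A gene was called listed when a summit lay within 2 kb of its lower annotated end. For these genes that end is the start of transcription, while the upper end of the gamma genes is shared by all of them.

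The cells were derived from brain of male E14.5 embryos of C57BL/6 x FVB/N background and were either wild type or homozygous for MommeD1, a null allele of Smchd1. The wild-type and the null cells each gave 2 libraries for Smchd1, 2 for H3K4me3, 2 for H3K27me3 and 3 for methylated DNA captured with the MBD2 binding domain (MBD-seq), with 1 whole cell extract. For Ctcf there were 2 libraries from wild-type cells without a transgene (untransduced), 2 from wild-type cells that carried a short hairpin RNA (shRNA) of the non-silencing kind, and 2 from null cells. The Ctcf control was 2 libraries of wild-type cells with the shRNAs Ctcf.6 and Ctcf.7, which the labels call Ctcf null. The authors pooled the libraries of a group before calling summits. No value below therefore has replicate error, no test between genotypes could be made, and a difference between lists is a description. In bulk cells, fewer cells that carry a mark and a lower level in each cell cannot be told apart.

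Clustered protocadherins are cell adhesion molecules of the cadherin family, and each neuron shows a small random choice of them on its surface, which lets its branches recognise one another. Each variable gene has its own promoter. Beta genes are single-exon genes, whereas every variable exon of the gamma cluster is spliced to a common set of constant exons. Most of the variable promoters carry a conserved sequence element that Ctcf binds when it is unmethylated, and Ctcf with cohesin loops a chosen promoter to distant enhancers. Pcdhb1 is the beta gene that lacks this element. DNA methylation of the promoters is laid down early in development and accompanies silencing. Smchd1 is a chromosomal protein needed for silencing at several gene clusters, this one among them.

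The beta genes extended from 37264998 to 37521419 on chromosome 18 of mm10, with a median distance of 7842 bp between neighbouring starts. The gamma members extended from 37661775 to 37841873, with a median of 5330 bp between starts. The nearest neighbours lay 4154 bp apart, so no summit was counted for 2 members. On assembled chromosomes the lists held 23449 (wild type) and 24201 (null) H3K4me3 summits, and 8292 (untransduced), 20483 (non-silencing) and 11920 (null) Ctcf summits. The MBD list with wild type in its name (the wild-type-named list) held 156188, and the one with null in its name (the null-named list) held 126631. Scores are −log10 p-values or q-values from the authors' peak caller and are used only to rank summits within a list. In the cells as a whole, 11 of 12 neural stem cell markers had H3K4me3 within 2 kb of either gene end in the wild-type list and 10 in the null list. Pax6, a radial glia regulator, was listed in wild type only, and Msi1 in neither. Astrocyte and microglia markers were listed at 0 of 4 each in both lists. Neuron markers were at 6 of 9 and oligodendrocyte markers at 1 of 4 in each list. Endothelial markers were at 1 of 3 and mesenchyme markers at 2 of 3 in each. With either end counted, the background over all coding genes was 58.3% for wild-type H3K4me3 and 58.0% for null. The neuron and mesenchyme counts are near that background, and no marker set was tested against it.

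**Figure D1:**
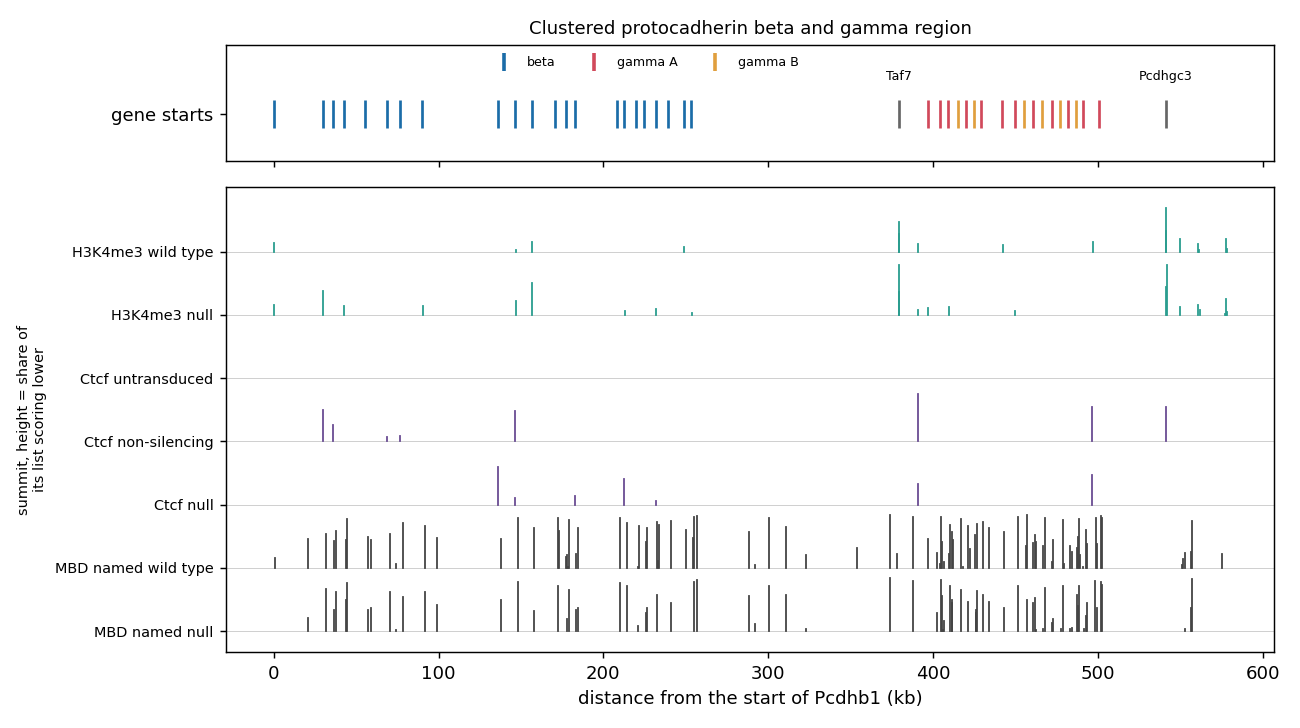
Summits along the beta and gamma region. The upper panel marks the start of each of the 40 genes and of Taf7 and Pcdhgc3, the x axis is the distance from the start of Pcdhb1 in kb, and each line of the lower panel is 1 summit with a height equal to the share of its list that scores lower. H3K4me3 summits at the genes are few and low beside those at Taf7 and Pcdhgc3, and MBD summits are dense in both lists.

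H3K4me3, the mark of active promoters, was listed at more of these genes in null cells than in wild-type cells. In wild type, 5 of the 40 genes were listed (12.5%), against 32.1% of all coding genes by the same rule. In null, 12 were listed (30.0%), against 31.9%. Since the lower end of a gene is as often its 3′ as its 5′ end, the starts of 17491 coding genes of known strand on other chromosomes give a further background, of which the wild-type list held 58.3% and the null list 57.9%.

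Listed in null only were 9 members (22.5%), and in wild type only 2 (5.00%). Over all coding genes the shares were 0.855% and 1.03%, and over the starts of known strand 0.698% and 1.04%. Listed in either genotype were 14 members (35.0%), against 32.9% of all coding genes and 59.0% of the starts of known strand. The 9 were the beta genes Pcdhb2, Pcdhb4, Pcdhb8, Pcdhb16, Pcdhb19 and Pcdhb22 and the gamma A genes Pcdhga1, Pcdhga3 and Pcdhga7. The 2 were Pcdhb21 and Pcdhga6. No gamma B gene was listed in either genotype. The nearest wild-type summit lay between 4649 and 56538 bp from the starts of the 9 null-only genes. For Pcdhb22 it was the summit of its neighbour Pcdhb21, which in turn had that of Pcdhb22 as its nearest null summit, 4843 bp away, so that neighbouring promoters were listed in opposite genotypes.

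Pcdhb1, Pcdhb10 and Pcdhb11 were listed in both genotypes (7.50% of members, 31.1% of all coding genes and 57.2% of the starts of known strand). At Pcdhb11 the summit scored 8.75 in wild type (position 37421648), above 18.1% of the wild-type list, and 31.7 in null (position 37421677), above 60.0% of the null list. At Pcdhb10 the scores were 4.54, above 2.51% of the list, and 11.2, above 26.2%. At Pcdhb1, which lacks the Ctcf element, they were 8.00 and 8.41, above 15.4% and 17.6%. Summits of the 2 lists lay 29 bp apart at Pcdhb11, 52 bp apart at Pcdhb1 and 195 bp apart at Pcdhb10.

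Among the null-only genes Pcdhb2 had the highest summit, at position 37294944 with a score of 20.7, above 44.2% of the null list. The other null-only beta summits scored 8.10 at Pcdhb4, 8.00 at Pcdhb8, 6.68 at Pcdhb19, 5.86 at Pcdhb16 and 4.86 at Pcdhb22. The gamma A summits scored 7.53 at Pcdhga3, 6.98 at Pcdhga1 and 5.89 at Pcdhga7. Those of wild type only scored 7.42 at Pcdhga6 and 5.95 at Pcdhb21. Apart from Pcdhb2 and Pcdhb11, these summits lay in the lower part of their lists. The median top score of listed members was 7.42 in wild type and 7.77 in null, where the medians over all listed coding genes were 39.4 and 39.7. The lists give no reads, so the part of depth in these calls was not tested.

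Taf7, a gene of the general transcription machinery that lies between the beta and gamma genes, had 2 H3K4me3 summits in each list, with top scores of 30.1 in wild type and 56.8 in null. Pcdhgc3, the first C-type gene downstream of the variable gamma genes, also had 2 in each, with top scores of 44.8 and 57.1. Taf7 was looked up at either gene end, since these summits lie 3543 to 3963 bp from its lower end and so outside the rule used for members. Both genes thus had H3K4me3 in both genotypes, with top scores above those of every listed member in the same list. The whole lists had median scores of 26.5 in wild type and 24.6 in null, with maxima of 80.6 and 161. Raw scores, at these genes or at members, are therefore not compared between the lists.

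All of the member H3K4me3 summits lay just downstream of the start. In wild type they lay 52 to 240 bp into the gene (median 143 bp), and in null 15 to 330 bp (median 119 bp). Over the starts of known strand on other chromosomes the median was 141 bp downstream in wild type and 144 bp in null. There 64.0% and 63.5% of the summits within 2 kb were downstream, whereas at members it was 5 of 5 and 12 of 12.

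**Figure D2:**
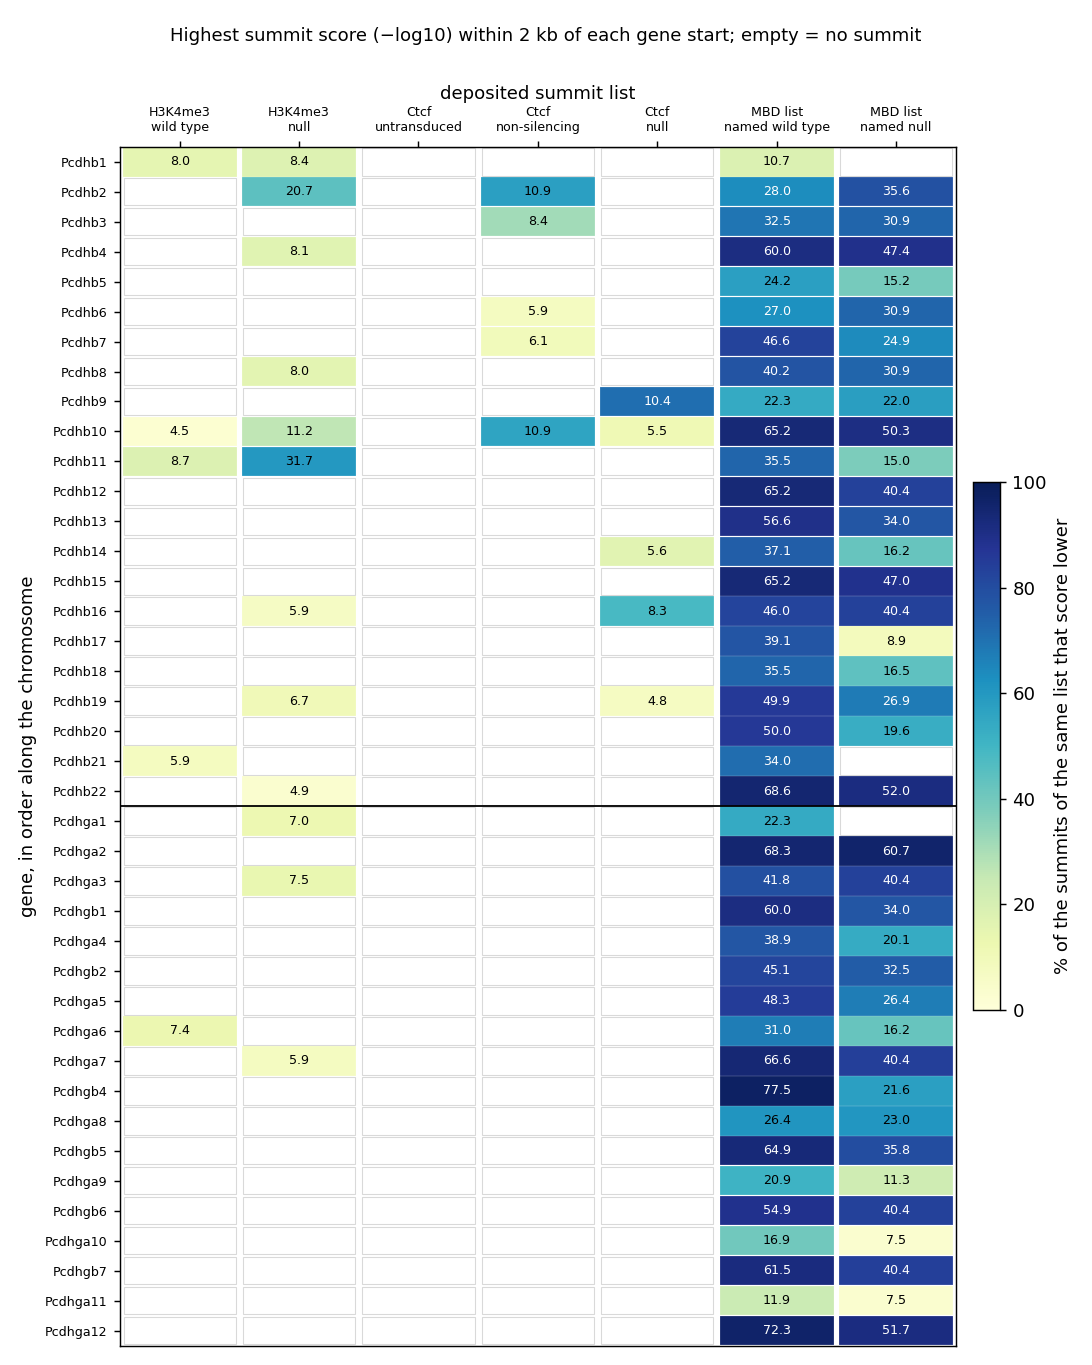
Highest summit score (−log10 scale) within 2 kb of the start of each of the 40 genes (rows, in chromosome order; the line separates beta from gamma) in 7 lists (columns). Colour gives the percentage of the same list that scores lower, and empty cells have no summit; 5 genes are listed for H3K4me3 in wild type, 12 in null, and 40 and 37 in the MBD lists.

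Ctcf was listed at beta genes and at no gamma member in these lists, and the non-silencing and null lists shared 1 gene. The untransduced wild-type list held 0 of the 40 genes (5.05% of all coding genes), the non-silencing list 5 (12.5%, against 9.67%) and the null list 5 (12.5%, against 6.57%). At the starts of known strand the shares were 6.47%, 11.6% and 8.14%, so the share of members in the non-silencing list was near that of gene starts in general. All of the listed members were beta genes in the 3 lists. The untransduced list is the shortest of them and the non-silencing list the longest.

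In cells with the non-silencing shRNA the listed genes were Pcdhb2 (score 10.9, above 57.6% of the list), Pcdhb10 (10.9, above 56.0%), Pcdhb3 (8.39), Pcdhb7 (6.12) and Pcdhb6 (5.92). In null cells they were Pcdhb9 (10.4, above 70.9% of the list), Pcdhb16 (8.28, above 48.5%), Pcdhb14 (5.56), Pcdhb10 (5.55) and Pcdhb19 (4.76). Pcdhb10 was the only member in both (2.50%, against 5.31% of all coding genes and 6.56% of the starts of known strand), with summits 67 bp apart. The genes listed in the non-silencing cells lay in the upstream stretch from Pcdhb2 to Pcdhb10, and those listed in null cells in the stretch from Pcdhb9 to Pcdhb19.

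Pcdhb9, Pcdhb14, Pcdhb16 and Pcdhb19 were listed in null and in neither wild-type list (10.0% of members, 1.05% of all coding genes and 1.27% of the starts of known strand). Pcdhb2, Pcdhb3, Pcdhb6 and Pcdhb7 were listed with the non-silencing shRNA and not in null (10.0%, against 4.36% and 5.04%). The nearest non-silencing summit lay 10816 to 85327 bp from the starts of the former 4, and the nearest null summit 59140 to 83267 bp from those of the latter 4. The latter 4 were not in the untransduced wild-type list either. The name of the null list marks its cells as untransduced, so genotype and shRNA cannot be told apart between the non-silencing and null lists. With all 3 Ctcf lists reduced to their 8292 highest summits, no member was listed in the non-silencing list, where Pcdhb2 and Pcdhb10 then fell just under the lowest score kept, 11.2, and Pcdhb9 and Pcdhb16 were left in null. The null list held 5 members beside 0 in the untransduced and 5 in the non-silencing list, and 2 beside 0 and 0 with equal numbers of summits. In null the lowest score kept was 6.70. The counts at equal numbers have no background share for the non-silencing and null lists, and the difference was not tested.

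Ctcf summits lay just upstream of the gene start at every listed member. They lay 3 to 112 bp upstream in the non-silencing list (median 67 bp) and 13 to 98 bp upstream in the null list (median 70 bp). For the starts of known strand on other chromosomes, 32.6% and 33.4% of the Ctcf summits within 2 kb were downstream of the start. Ctcf in any list was found at 9 of the 40 members (22.5%). The background shares were 11.4% of all coding genes and 13.8% of the starts of known strand. All 9 were beta genes, 40.9% of that class, and 0 of the 18 gamma members were listed. Pcdhb1 was in none of the Ctcf lists.

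Between Taf7 and Pcdhga1, the first gamma gene, a Ctcf summit lay 6207 bp upstream of the Pcdhga1 start with the non-silencing shRNA (score 17.3) and 6216 bp upstream in null (7.45). H3K4me3 was listed beside it in both genotypes, with scores of 7.66 in wild type and 6.01 in null. The nearest annotated lower gene end is that of the pseudogene Gm8242, and no member starts there. The pseudogene Pcdhgb8, between Pcdhga11 and Pcdhga12, had Ctcf with the non-silencing shRNA (12.1) and in null (8.80) and H3K4me3 in wild type only (8.63). It was thus the only variable gamma gene copy with Ctcf in these lists.

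Ctcf and H3K4me3 met at few of the same genes. In null cells both were listed at Pcdhb10, Pcdhb16 and Pcdhb19 (7.50% of members, against 4.04% of all coding genes and 6.99% of the starts of known strand), a share near that of gene starts in general. Pcdhb9 and Pcdhb14 had null Ctcf and no H3K4me3 in either genotype. The remaining 9 of the 12 genes with null H3K4me3 had no null Ctcf. At the genes with both, the Ctcf summit lay upstream of the H3K4me3 summit by 165 bp at Pcdhb16, 185 bp at Pcdhb19 and 400 bp at Pcdhb10. In wild type only Pcdhb10 had both H3K4me3 and non-silencing Ctcf (2.50%, against 5.82% and 9.95%). That Ctcf list comes from cells with an shRNA, and the H3K4me3 labels name none. The untransduced wild-type Ctcf list held 0 members, so no member had both by that list. Pcdhb2 had non-silencing Ctcf, and H3K4me3 in null only. Pcdhb3, Pcdhb6 and Pcdhb7 had non-silencing Ctcf and no H3K4me3 in either list.

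**Figure D3:**
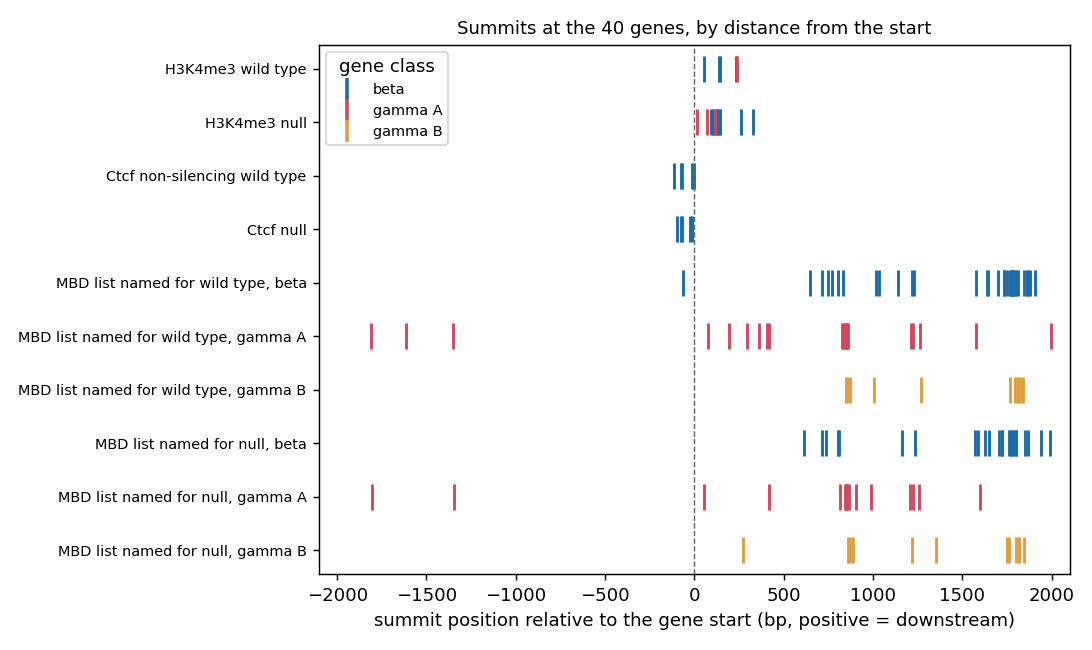
Position of each summit within 2 kb of the start of its gene (x axis, bp, positive downstream; each tick is 1 summit, coloured by gene class), for H3K4me3, Ctcf and both MBD lists. Ctcf summits lie 3 to 112 bp upstream, H3K4me3 summits 15 to 330 bp downstream, and MBD summits gather at 800 to 900 and 1600 to 2000 bp downstream.

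Methylated DNA was listed at nearly all of these genes. The wild-type-named list held all 40 (29.7% of all coding genes) and the null-named list held 37 (25.8%). At the starts of known strand the shares were 20.7% and 17.5%, and both lists held 37 members (92.5%), against 25.3% of all coding genes and 17% of those starts. The labels of the MBD samples conflict with the names of the lists, since each genotype's samples refer to the file named after the other genotype, so no genotype is assigned to either list. Pcdhb1, Pcdhb21 and Pcdhga1 were in the wild-type-named list only (7.50%, against 4.48% of all coding genes and 3.64% of the starts of known strand), and no member was in the other list only (0.494% and 0.452%). Each of these 3 genes also had H3K4me3 in at least 1 list, as did 14 of all 40 members (35.0%). Of those 14 genes, 11 were in both MBD lists, and a link between the marks was not tested. All 26 genes without H3K4me3 in either genotype were in both MBD lists (65.0% of members, against 20.0% of all coding genes and 8.86% of the starts of known strand with both MBD lists and no H3K4me3).

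The MBD summits within 2 kb were also counted and ranked. In the wild-type-named list, 65 summits lay within 2 kb of the 40 starts, a mean of 1.62 per gene against 0.426 over all coding genes. In the null-named list there were 53, a mean of 1.32 against 0.353. The median top score of listed members was 43.5 in the wild-type-named list, against 29.5 over all listed coding genes, and 30.9 in the null-named list, against 25.4. By class, the gamma A genes had a median of 23.0 in the null-named list, under that of all listed coding genes, beside 30.9 for beta and 34.9 for gamma B genes. The 12 alternate alpha genes had a mean of 2.0 and 1.33 summits per gene and median top scores of 55.7 and 20.4. The highest were at Pcdhgb4 (77.5, above 97.4% of the list), Pcdhga12 (72.3), Pcdhb22 (68.6) and Pcdhga2 (68.3) in the wild-type-named list. In the null-named list they were at Pcdhga2 (60.7, above 95.8%), Pcdhb22 (52.0), Pcdhga12 (51.7) and Pcdhb10 (50.3). Of the 53 summits in the null-named list, 50 had one of the other list within 250 bp, a share of 94.3% where the whole list gave 96.4%. In the other direction it was 50 of 65, or 76.9%, against 78.2%.

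Most MBD summits lay downstream of the gene start and away from it. Every member is longer than 2 kb, so any summit counted downstream of a start lies inside the gene. Downstream of the start were 61 of 65 and 51 of 53, where starts of known strand on other chromosomes gave 62.4% and 63.4%. Within 500 bp of the start were 7 (10.8%) and 3 (5.66%), where those other starts gave 23.8% and 24.8%. With a distance of 1 kb in place of 2 kb, 19 and 17 of the 40 genes remained listed. The share of all coding genes at 1 kb is not given here, so the excess over the background holds for 2 kb only. All 22 beta genes held an MBD summit between their annotated ends in the wild-type-named list, and 20 in the null-named list, which left Pcdhb1 and Pcdhb21. Of 2372 coding genes within the range of length of the beta genes, 43.3% and 39.0% did.

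The position recurred from gene to gene and differed between classes. The ranges used here, 800 to 900 bp and 1600 to 2000 bp downstream of the start, were chosen after the positions had been seen. Between 1600 and 2000 bp, 20 of 22 beta genes had a summit in the wild-type-named list (median 1782.5 bp) and 16 in the null-named list (median 1777.5 bp). All 6 gamma B genes had one in both lists, at 1768 to 1839 bp and at 1750 to 1845 bp. Of the 12 gamma A genes, 1 did in the wild-type-named list (Pcdhga10, at 1995 bp) and 0 in the null-named list. Between 800 and 900 bp, 7 and 6 of the 12 gamma A genes had a summit, with medians of 847 and 849 bp, as did 3 of 6 gamma B genes in each list and 2 of 22 beta genes in each. Of the starts of known strand on other chromosomes, 3.61% and 3.1% had a summit in the farther range and 0.583% and 0.475% in the nearer one. The farther range is not particular to the beta and gamma B genes, since 6 and 5 of the 12 alternate alpha genes (50.0% and 41.7%) had a summit there as well. In the nearer range 1 and 0 of them did.

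The gamma A genes without a summit between 800 and 900 bp in either list were Pcdhga1, Pcdhga3, Pcdhga7 and Pcdhga12. Null H3K4me3 was listed at 3 of these 4, and at 3 of all 12 gamma A genes. The range was chosen after the positions had been seen, and its edges decide which genes fall outside. In the null-named list Pcdhga5 (902 bp) and Pcdhga4 (989 bp) also lay outside it, as did Pcdhga11 in the wild-type-named list. None of the latter had H3K4me3 in either genotype. A link between this range and H3K4me3 was not tested. At Pcdhga3 the summits lay at 295 and 1214 bp in the wild-type-named list and at 1205 bp in the other, at Pcdhga7 at 1578 and 1597 bp, and at Pcdhga1 at 409 bp in the wild-type-named list alone. Pcdhga6, with H3K4me3 in wild type only, had its MBD summit at 826 and 841 bp, within that range in both lists. Variable exons of one class are close copies of each other, so it is uncertain which of them a read came from. How reads with several matches were treated is unknown here.

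H3K4me3 and MBD summits at one gene lay 226 to 1725 bp apart. Such distances follow from the positions described above, with H3K4me3 close to the start and most MBD summits away from it. For the 12 genes with null H3K4me3, the nearest summit of the wild-type-named MBD list lay 226 to 1707 bp away (median 1270 bp), and for the 10 of them in the null-named MBD list it lay 699 to 1725 bp away (median 1487 bp). For the 5 genes with wild-type H3K4me3 the nearest summit of the wild-type-named list lay 586 to 1697 bp away. Counted from the gene start, the nearest MBD summit of the wild-type-named list was at a median of 1396.5 bp for the 14 genes with H3K4me3 in either genotype and of 864.5 bp for the 26 without. In the null-named list the medians were 1597 bp, over the 11 of the 14 genes with a summit there, and 896 bp over the 26. Beta genes made up 10 of the 14 genes and 12 of the 26, and the part of class in these medians was not tested.

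Smchd1 and H3K27me3 were listed at 0 of the 40 genes. For Smchd1, the 5e-4 list marked 0.375% of all coding genes and the list at the looser threshold of 5e-3 marked 0.955%, and at the starts of known strand the shares were 0.4% and 1.45%. The nearest summit to any member lay 46614 bp before the start of Pcdhb1 in both lists, between the alpha and beta genes. H3K27me3, a mark laid down by Polycomb complexes, was listed at 0.553% of all coding genes in wild type, 0.0868% in null and 0.589% in either genotype. At the starts of known strand these shares were 0.617%, 0.08% and 0.64%. At these list lengths, with 407 Smchd1 summits and 77 H3K27me3 summits in null, absence from a list does not show absence from the chromatin.

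**Figure D4:**
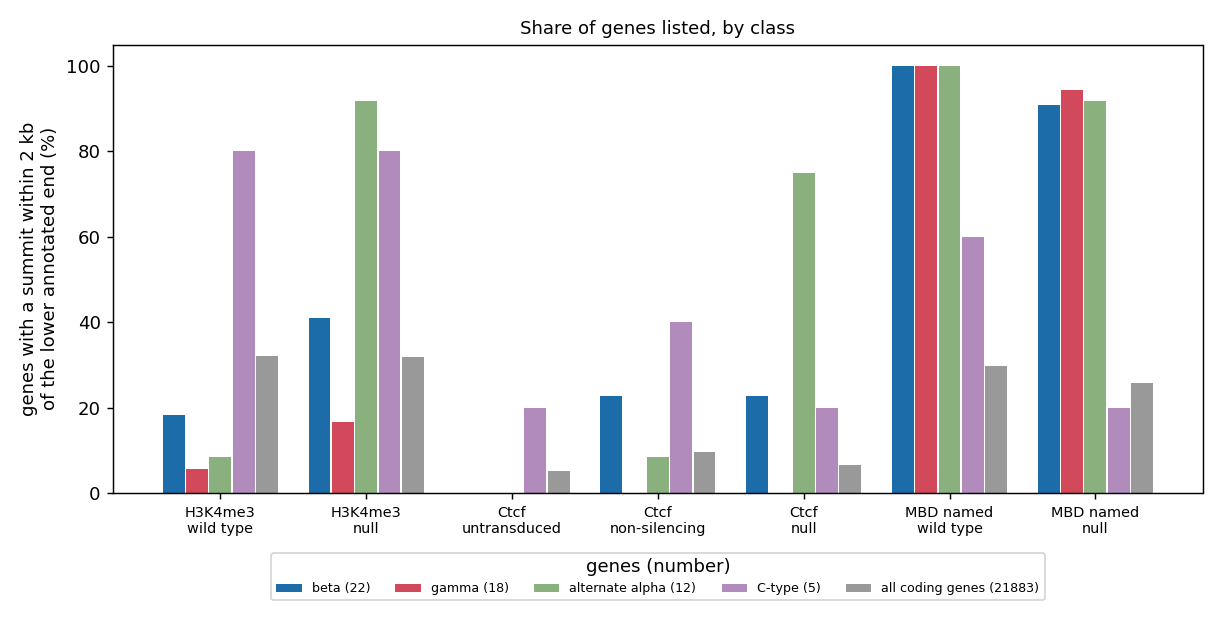
Percentage of genes listed, by class, in 7 summit lists. Bars stand for the 22 beta and 18 gamma members, the 12 alternate alpha genes, the 5 C-type genes and all 21883 coding genes; null H3K4me3 is listed at 40.9% of beta, 16.7% of gamma and 91.7% of alternate alpha genes.

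The alternate alpha genes and the C-type genes of the same clusters were set beside the members by the same rule. Null H3K4me3 was listed at 9 of 22 beta genes (40.9%) and 3 of 18 gamma members (16.7%), beside 11 of 12 alternate alpha genes (91.7%), and it was null only at 6, 3 and 10 of them. The alternate alpha genes listed in null had a median top score of 17.6, beside 7.77 for the members. Null Ctcf was listed at 5 beta genes, 0 gamma members and 9 alternate alpha genes. Of the 5 C-type genes, which are not chosen at random in the way of the other genes, 4 had H3K4me3 in both genotypes and none in null only. The MBD lists held 3 and 1 of the C-type genes and 12 and 11 of the alternate alpha genes. These classes share the libraries and the pooled calls, and their differences were not tested.

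Neighbouring genes and genes that act on the cluster were looked up for H3K4me3 at either gene end. By that rule 58.3% of all coding genes were listed in wild type, 58.0% in null, 1.05% in null only and 1.37% in wild type only, so that 0 genes in one list only is near the background for lists of this size. Of 16 genes in or beside the cluster, 13 had H3K4me3 at either end in each list and 0 in one list only, among them Taf7, Diaph1, Hdac3 and Zmat2. Slc25a2, a mitochondrial carrier gene beside Taf7, was among those in neither, and had MBD summits in both lists. Of 24 genes for proteins that act on protocadherin promoters, chromatin loops or DNA methylation, 20 were listed in both genotypes and 0 in one only. They included Ctcf, the cohesin genes Rad21, Smc1a, Smc3 and Stag2, the methyltransferase gene Dnmt3b and Smchd1 itself. Dnmt1, Dnmt3a, Nipbl and Stag1 were in neither. Of 12 non-clustered protocadherin genes 10 were listed in both and 0 in one only, with Pcdh12 and Pcdh15 in neither.

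H3K4me3 or Ctcf in any list was found at 19 members (47.5%), against 37.4% of all coding genes and 60.9% of the starts of known strand, and the remaining 21 had neither. They were the beta genes Pcdhb5, Pcdhb12, Pcdhb13, Pcdhb15, Pcdhb17, Pcdhb18 and Pcdhb20, all 6 gamma B genes and the gamma A genes Pcdhga2, Pcdhga4, Pcdhga5, Pcdhga8, Pcdhga9, Pcdhga10, Pcdhga11 and Pcdhga12. All were in both MBD lists. At Pcdhb13 an MBD summit of the wild-type-named list lay 64 bp upstream of the start (score 11.0), the only one upstream of a beta gene, and at Pcdhga8 summits lay 75 and 53 bp downstream (18.3 and 18.8). Pcdhga11 had the lowest top score of all gamma members in the wild-type-named list (11.9), from a summit 1615 bp upstream of its start. Its summit inside the gene, 193 bp from the start, scored 5.86, above 0.658% of that list.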

How the data were processed

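Binding and histone marks were measured by ChIP-seq and methylated DNA by MBD-seq in 28 libraries of 14 groups. Per the submitters' processing notes, base calling used CASAVA 1.4, MACS2 (version 2) called the peaks and the build was mm10. No aligner is named in those notes. The deposited files are 11 lists of 1 bp summits with a score, deposited by the authors on a −log10 scale of either p-values or q-values. Their lowest scores lay just above 3.301, or 2.301 in the looser Smchd1 list. Per the labels, each list pools the libraries of a group. Controls were Smchd1 ChIP in null cells, Ctcf ChIP in cells with Ctcf shRNAs, or whole cell extract. Depth per library is unknown. Labels and names of the MBD lists conflict, so those lists are called by name.

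Summits on unplaced contigs were left out. Genes came from a RefSeq table of GRCm38.p6, the assembly of mm10, which gives no strand; starts of known strand came from a RefSeq promoter table that covers 17491 coding genes on other chromosomes. A gene was listed when a summit lay within 2 kb of its lower end, computed in Python 3.11.15 with numpy 2.4.6 and pandas 2.3.3, and figures with matplotlib 3.10.9. On simulated summits, 100 of 100 genes planted inside 2 kb were recovered and 0 of 100 outside it were listed. No test was run. All members with H3K4me3 or Ctcf in any list were named, and the others as a group. The members and gene lists were chosen with earlier results of these data known. Alternatives were distances of 1 and 5 kb, a score of at least 5, equal numbers of highest-scoring summits, counting a summit for the nearest gene only, and the Smchd1 list at 5e-3.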

Additional observations from a re-analysis of the deposited data

How the results depend on the processing

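Most counts of listed members stayed within 1.5 times under the alternatives run. With equal numbers of highest-scoring summits, Ctcf was listed at 0 members in the non-silencing list (5 as reported) and at 2 in null (5). That setting left 2 beta genes listed in null and in neither wild-type list (4 as reported) and 1 member with both H3K4me3 and Ctcf in null (3). It keeps 8292 Ctcf summits per list, so fewer low ones. For the non-silencing and null lists the share of all coding genes at that setting is not given here. At 1 kb, 19 and 17 members were in the wild-type-named and null-named MBD lists (40 and 37 as reported), since many of those summits lie beyond 1 kb. No background share at 1 kb is given here. The H3K4me3 null-only count was 6 beta and 3 gamma genes in every alternative, although 5 of the 6 beta genes were the same at 5 kb and at a score of at least 5. Smchd1 and H3K27me3 were listed at 0 members in all of them. Counting the pseudogene Pcdhgb8, an alternative chosen after seeing the data, gave 3 genes with H3K4me3 in wild type only, and 6 with Ctcf in the non-silencing and 6 in the null list. No paired analysis was possible because each list pools its libraries; for the same reason no library could be left out. Depth is unknown, so genes near the calling threshold cannot be told from unmarked ones.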
